A study of Mus musculus with 6 samples.

Results

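The 10 imprinted genes of fetal growth H19, Igf2, Meg3, Dlk1, Peg3, Peg10, Cdkn1c, Grb10, Plagl1 and Mest were followed in sorted mouse thyroid tumor cells. They were chosen by name, as well-known imprinted genes that act on growth before birth, with no value used in the rule, and are 10 of the 35027 genes in the deposited table. Kate-positive cells sorted out of thyroid tumors were profiled by RNA-seq, with 3 libraries from YAP mice and 3 from BrafYAP mice, and the comparison asks how the transcriptome differed once mutant Braf was added to nuclear YAP. All mice were genetically modified and carried a thyroid-specific Cre, a Cre-dependent cassette of the dox-dependent activator rtTA and the fluorescent protein Kate, and a tetO-driven YAPS127A transgene, whose product stays in the nucleus. The BrafYAP mice carried in addition a Cre-activated allele that expresses BrafV600E from the endogenous Braf gene. Per the labels dox chow was given to both groups from the age of 4 weeks, about 20000 sorted cells went into each library, each YAP library pooled 3 tumors, and each BrafYAP library (replicates 1, 2 and 6) came from 1 tumor. Pooling and genotype therefore cannot be told apart, and there was no thyroid without YAPS127A and none with BrafV600E alone.

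Imprinted genes are transcribed mainly from the copy inherited from one parent, under DNA methylation marks set in the germ line and kept through later divisions. Many lie in clusters in which protein-coding genes and long noncoding RNAs share control elements, and many act on the growth of the fetus and the placenta. Many are turned down after birth in most tissues. H19, Meg3, Cdkn1c and Grb10 are known mainly as maternally expressed, and Igf2, Dlk1, Peg3, Peg10, Plagl1 and Mest as paternally expressed. Parental alleles were not measured here, so every value below sums both copies. In bulk samples, fewer cells of a type and less RNA per cell cannot be told apart.

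Values are given in 2 forms. Estimated reads are the number of reads behind a gene's deposited value, with library totals between 26.1 and 36.9 M reads. Scaled reads put these on the authors' scale between libraries, and all differences are of log2(scaled reads + 1), BrafYAP minus YAP, from limma. Of the 10 genes, 9 reached the minimum mean of 10 scaled reads and were tested among 16804 genes, and Igf2, Dlk1 and Cdkn1c reached it only through their BrafYAP libraries. None of the 9 passed an adjusted p of 0.05, as with all genes tested (0 called, 0%), while 3404 genes (20.3%) had an unadjusted limma p under 0.05. With 3 libraries against 3, an exact permutation test of a single gene cannot go below p = 0.1.

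Of the 10 genes, Meg3, Cdkn1c and Mest were higher in every BrafYAP library than in every YAP library, and Grb10 was lower in every one. Over all genes tested, 28.8% had groups that did not overlap, 11.7% with BrafYAP higher and 17.1% with BrafYAP lower. The same 4 genes were those with an unadjusted limma p under 0.05 (9.69% of all genes were higher and 10.6% lower by that measure). The groups overlapped for H19, Igf2, Dlk1, Peg3, Plagl1 and Peg10. The median difference of the 9 tested genes was 1.45, beside -0.12 over all genes tested, a description only, since 3 of the 9 entered through the higher group.

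**Figure D1:**
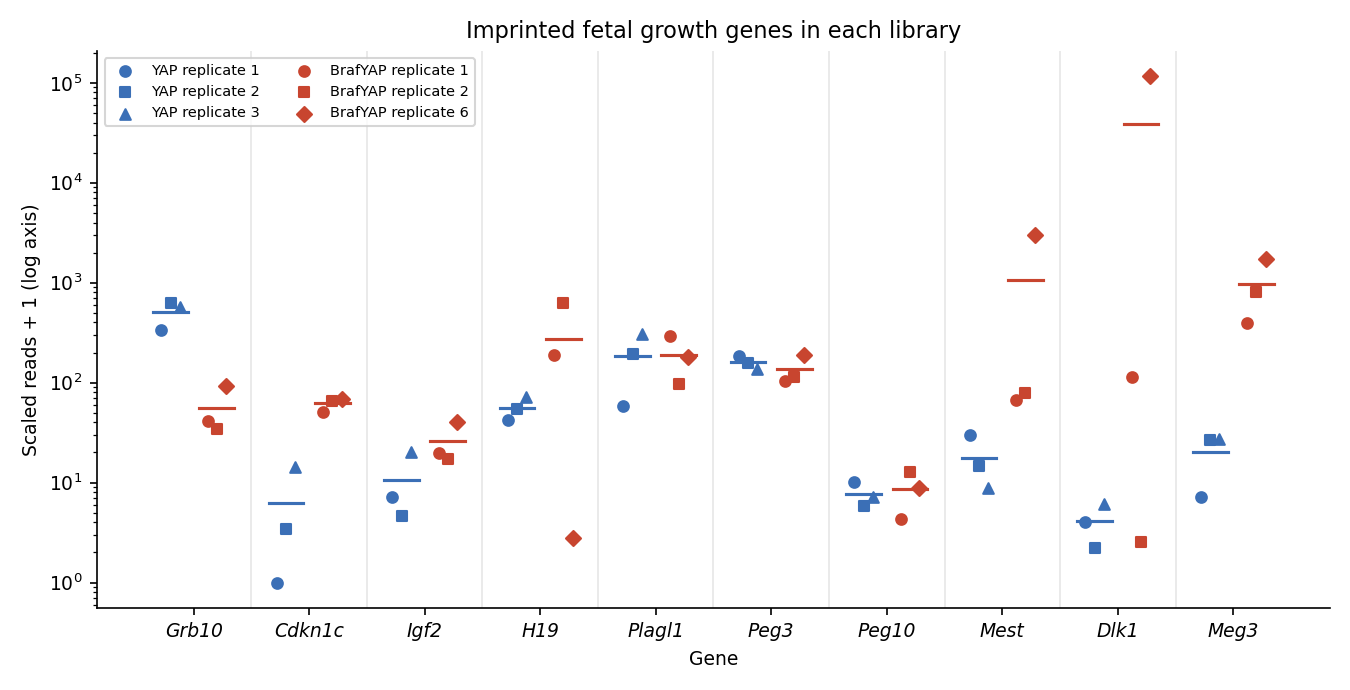
Scaled reads plus 1 on a log axis for the 10 imprinted genes, with YAP libraries in blue, BrafYAP libraries in red, 1 symbol per library and bars at the group means. Meg3, Cdkn1c and Mest have all red points above all blue ones and Grb10 all below, while Dlk1 spans from 2 to 132816 estimated reads within BrafYAP.

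One library needs a description before the genes. BrafYAP replicate 6 correlated with the other libraries at r = 0.731 to 0.837 across genes, whereas the other 5 libraries correlated with each other at 0.832 to 0.968. Thyroid markers were present throughout, with 5839 to 14226 estimated reads of Pax8, a thyroid lineage transcription factor, but 8 of 10 thyroid markers were highest in BrafYAP replicate 6. Tg, the thyroid hormone precursor, had 6471, 1045 and 16180 estimated reads in the YAP libraries and 116, 66 and 22103 in BrafYAP replicates 1, 2 and 6. The parathyroid hormone gene Pth had 24, 741 and 17 estimated reads in YAP and 0, 3 and 5739 in BrafYAP. In BrafYAP replicate 6, 2 of 3 parathyroid markers and 6 of 7 endothelial markers were at their highest. The 7 immune markers summed to 12487 to 42878 exonic TPM (defined further on) in YAP and 3395 to 13045 in BrafYAP, and 4 of the 7 were lower in every BrafYAP library. Of 6 pericyte and smooth muscle markers, Acta2 was lower in every BrafYAP library (10081 to 20090 reads in YAP and 756 to 5806 in BrafYAP), Des was higher in every one (9 to 49 and 93 to 109 reads), and the other 4 overlapped. The part of these cells in the results below was not tested, and for the genes whose groups did not overlap the log2 difference is also given without BrafYAP replicate 6.

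Meg3 and Dlk1 are neighbours in the cluster on distal mouse chromosome 12. Meg3 is a long noncoding RNA of the maternal copy, and Dlk1 a membrane protein with epidermal growth factor repeats, related to the Notch ligands and known from progenitor cells and from fetal growth. Their RefSeq promoter windows, 250 bases before to 50 after the start (build GRCm38.p6), are shown because the genes share a cluster and differed in how many BrafYAP libraries contained them. Meg3 lies on the plus strand at chr12:109540746-109541045, with 13 CG dinucleotides, and Dlk1 on the plus strand at chr12:109452573-109452872, with 9. Capitals mark CG, the dinucleotide at which imprints are laid down.
Meg3: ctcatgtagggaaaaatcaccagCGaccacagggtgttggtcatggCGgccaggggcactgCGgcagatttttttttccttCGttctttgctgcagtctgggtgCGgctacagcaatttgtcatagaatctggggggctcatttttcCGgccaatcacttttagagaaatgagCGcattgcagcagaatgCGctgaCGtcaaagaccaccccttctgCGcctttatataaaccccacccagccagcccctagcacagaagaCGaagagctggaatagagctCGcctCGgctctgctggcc
Dlk1: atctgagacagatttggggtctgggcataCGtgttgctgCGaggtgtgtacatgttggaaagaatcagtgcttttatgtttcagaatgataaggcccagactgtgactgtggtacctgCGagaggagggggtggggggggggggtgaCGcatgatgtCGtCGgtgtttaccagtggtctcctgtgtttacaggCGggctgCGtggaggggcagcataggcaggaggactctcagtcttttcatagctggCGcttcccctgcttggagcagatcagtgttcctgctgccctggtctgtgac

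Meg3 (chromosome 12, 109541001 to 109571726, mm10) had 6, 21 and 26 estimated reads in the YAP libraries and 359, 1038 and 1978 in BrafYAP replicates 1, 2 and 6. All 3 BrafYAP libraries were high and none overlapped with YAP. Mean scaled reads were 19.3 ± 11.5 in YAP and 979.5 ± 689 in BrafYAP (SD, n = 3 each), a ratio of 50.7, or 31.1 without replicate 6. The log2 difference was 5.57 (SE 0.73, 95% confidence interval 3.85 to 7.30), with a limma adjusted p of 0.0543, the 30th smallest p of the 16804 genes. Without BrafYAP replicate 6 it was 5.03 (adjusted p = 0.0656), and over all settings run the adjusted p lay between 0.0019 and 0.233. The microRNA genes Mir770 and Mir1906-1 lie within Meg3 and can share its reads.

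Rian and Mirg, the noncoding RNAs downstream of Meg3 that carry snoRNAs and microRNAs, had a like order of libraries. Rian had 0, 2 and 3 estimated reads in YAP and 69, 364 and 934 in BrafYAP, with a log2 difference of 6.77 (SE 1.00, limma adjusted p = 0.0637). Mirg had 0, 1 and 0 reads in YAP and 9, 26 and 36 in BrafYAP, with a difference of 3.91 (SE 0.95). Both were near 0 in YAP and present in all 3 BrafYAP libraries, so their log2 differences depend on the 1 scaled read that was added. Both reached the minimum of 10 only through BrafYAP, where they were higher, and Mirg stayed low there. Without BrafYAP replicate 6 the differences were 5.94 and 3.54. Per 100 reads of Meg3 there were 19.2, 35.0 and 47.2 reads of Rian in BrafYAP replicates 1, 2 and 6, and 0, 9.52 and 11.5 in the YAP libraries, where both numbers are small. Rtl1, a retrotransposon-derived coding gene of the paternal copy that lies opposite a noncoding antisense transcript, stayed under the minimum with 1, 1 and 0 reads in YAP and 13, 10 and 38 in BrafYAP. The counting was not stated to use strand, so reads of Rtl1 and of its antisense transcript cannot be told apart.

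Dlk1 (chromosome 12, 109452823 to 109463336) differed from its neighbour in the spread within BrafYAP. It had 3, 1 and 5 estimated reads in YAP and 104, 2 and 132816 in BrafYAP replicates 1, 2 and 6. BrafYAP replicate 2, with 1038 reads of Meg3, was within the YAP range of Dlk1, and replicate 6 was far above all other libraries. In replicate 6 Dlk1 made up 0.411% of all estimated reads and ranked 63rd of all genes by exonic TPM. The log2 difference of 6.42 had an SE of 3.41 (95% confidence interval -1.58 to 14.42, limma adjusted p = 0.332), and without replicate 6 it was 2.18 (adjusted p = 0.467, range over all settings 0.248 to 0.731). Dlk1 reached the minimum of 10 scaled reads only through BrafYAP. No annotated gene overlaps Dlk1. The library with most Dlk1 also had the most Pth and Chga reads (5739 and 6804), while YAP replicate 2, with 741 and 1594, had 1 read of Dlk1. In all, 2 of 3 parathyroid and 3 of 5 C-cell markers were highest in BrafYAP replicate 6. The C-cell marker Calca was highest in YAP replicate 1, with 1101 reads beside 879 in BrafYAP replicate 6. The part of such cells in the Dlk1 level was not tested.

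**Figure D2:**
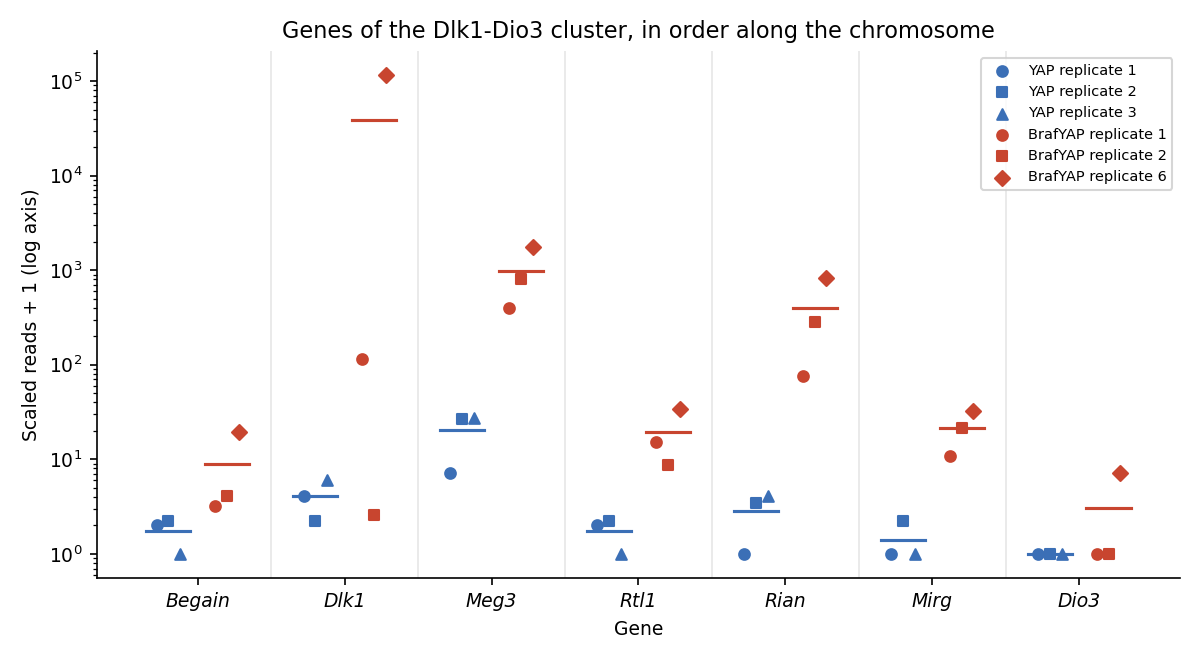
Scaled reads plus 1 on a log axis for 7 genes of the chromosome 12 cluster in chromosomal order, with YAP libraries in blue, BrafYAP libraries in red and bars at the group means. Meg3 and Rian are near the bottom in YAP and high in all 3 BrafYAP libraries. Mirg is near 0 in YAP and above that but low in BrafYAP (9, 26 and 36 reads). Dlk1 is high in replicate 6, intermediate in replicate 1 with 104 reads and in the YAP range in replicate 2.

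Cdkn1c lies in the Kcnq1 domain of chromosome 7, where some genes were higher in BrafYAP and others overlapped. Cdkn1c (143458339 to 143461050) encodes p57, an inhibitor of cyclin-dependent kinases that restrains growth of the fetus. It had 0, 2 and 13 estimated reads in YAP and 46, 83 and 77 in BrafYAP. All BrafYAP libraries were above all YAP libraries, with little spread among them, although read numbers were low. Mean scaled reads were 5.22 ± 7.05 in YAP and 60.8 ± 9.16 in BrafYAP (SD, n = 3 each), a ratio of 11.7, and the log2 difference was 4.07 (SE 1.01, 95% confidence interval 1.71 to 6.43, limma adjusted p = 0.108). Leaving out BrafYAP replicate 6 gave 3.99 (adjusted p = 0.153, range over all settings 0.0352 to 0.271). Cdkn1c reached the minimum of 10 only through BrafYAP, where it was high, and its log2 difference depends on the 1 scaled read added. With 0.1 or 10 added instead, the difference was 5.33 and 2.31. The predicted gene Gm44732 overlaps Cdkn1c and may share reads.

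Phlda2, a maternally expressed gene that limits placental growth, had 21, 41 and 73 estimated reads in YAP and 368, 195 and 510 in BrafYAP (log2 difference 2.78, SE 0.62, limma adjusted p = 0.0991). Kcnq1, a potassium channel subunit, had 8, 62 and 34 reads in YAP and 356, 484 and 1982 in BrafYAP (4.45, SE 0.91, adjusted p = 0.0900). Both were higher in every BrafYAP library, and without replicate 6 the differences were 2.50 for Phlda2 and 3.72 for Kcnq1. Slc22a18 was also higher in every one (1.15, SE 0.43, and 0.75 without replicate 6). Tnfrsf23, which lies between Nap1l4 and Osbpl5, was higher in every BrafYAP library too (0.75, SE 0.33, and 0.90 without replicate 6). The other listed genes of the region that were tested overlapped, with differences of 0.13 for Cd81, -0.04 for Tssc4, -0.35 for Nap1l4 and -0.63 for Osbpl5. Kcnq1ot1, the noncoding RNA read from the opposite strand within Kcnq1, had 336, 136 and 612 reads in YAP and 102, 215 and 169 in BrafYAP, so its groups overlapped and its difference of -1.22 (SE 0.52) had the opposite sign to that of Kcnq1. Reads of the pair can be shared, since no strand was stated.

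H19 and Igf2 lie in the adjoining domain of chromosome 7 (142575529 to 142578143 and 142650766 to 142666816). H19 is a maternally expressed long noncoding RNA and the host of Mir675, and Igf2 is the paternally expressed fetal growth factor that signals through the insulin and IGF1 receptors. H19 had 41, 44 and 69 estimated reads in YAP and 172, 812 and 2 in BrafYAP replicates 1, 2 and 6. BrafYAP replicates 1 and 2 were above every YAP library and replicate 6 below every one. The log2 difference was 0.33 (SE 1.81, limma adjusted p = 0.934), and without replicate 6 it was 2.66 (adjusted p = 0.109). It turned to -1.26 without BrafYAP replicate 2 and to -0.39 without replicate 1, and the adjusted p ranged from 0.109 to 0.983 over all settings.

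Igf2 was low in all libraries, with 6, 3 and 19 estimated reads in YAP and 17, 21 and 45 in BrafYAP. YAP replicate 3 was within the BrafYAP range. Igf2 reached the minimum of 10 scaled reads only through BrafYAP. The log2 difference was 1.45 (SE 0.80, 95% confidence interval -0.42 to 3.33, limma adjusted p = 0.345), and 1.08 without BrafYAP replicate 6. Per kilobase of exon H19 exceeded Igf2 in 5 of 6 libraries, and in BrafYAP replicate 6 the order was the opposite, with an exonic TPM of 0.0640 for H19 and 0.619 for Igf2. Igf2os, which is antisense to Igf2, and Mir483 lie within its span and can share reads.

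Grb10 was the 1 gene of the 10 that was lower in every BrafYAP library. It encodes an adaptor protein that binds the insulin and IGF1 receptors and restrains their signal, and loss of the maternal copy is known to enlarge the fetus. Its RefSeq promoter windows lie on the minus strand of chromosome 11 (build GRCm38.p6) at chr11:12037371-12037670 and chr11:12027922-12028221. They are shown because its start sites differ in CG content, with 45 and 9 CG dinucleotides (in capitals) in windows of 300 bases.
Grb10, upstream start: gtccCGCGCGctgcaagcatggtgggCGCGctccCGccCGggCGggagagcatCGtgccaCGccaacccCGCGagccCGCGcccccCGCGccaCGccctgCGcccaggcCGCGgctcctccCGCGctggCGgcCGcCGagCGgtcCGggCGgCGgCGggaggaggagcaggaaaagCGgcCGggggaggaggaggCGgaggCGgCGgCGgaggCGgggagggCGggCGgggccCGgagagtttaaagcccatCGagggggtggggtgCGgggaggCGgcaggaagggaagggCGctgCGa
Grb10, downstream start: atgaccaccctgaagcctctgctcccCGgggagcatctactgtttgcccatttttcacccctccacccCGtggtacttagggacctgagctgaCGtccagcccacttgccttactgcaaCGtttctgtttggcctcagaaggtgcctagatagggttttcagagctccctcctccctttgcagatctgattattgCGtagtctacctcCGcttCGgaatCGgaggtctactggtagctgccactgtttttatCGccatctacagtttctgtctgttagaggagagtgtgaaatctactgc

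Grb10 (chromosome 11, 11930508 to 12038683) had 329, 516 and 554 estimated reads in YAP and 37, 43 and 103 in BrafYAP replicates 1, 2 and 6. The groups did not overlap, and the highest BrafYAP library had fewer reads than the lowest YAP library. Mean scaled reads were 507.7 ± 153 in YAP and 54.8 ± 31.1 in BrafYAP (SD, n = 3 each), 9.26 times higher in YAP. The log2 difference was -3.28 (SE 0.49, 95% confidence interval -4.42 to -2.13, limma adjusted p = 0.0648), and without BrafYAP replicate 6 it was -3.70, which passed the threshold (adjusted p = 0.0465, range over all settings 0.00090 to 0.245). Cobl, an actin nucleator next to Grb10, had 914, 794 and 1109 estimated reads in YAP and 454, 574 and 108 in BrafYAP (-1.86, SE 0.63, limma adjusted p = 0.173), likewise without overlap. It rested in part on BrafYAP replicate 6, the lowest library, without which the difference was -1.09. No annotated gene overlaps Grb10. Ptprc, C1qa, Csf1r and Cd68 of the immune markers and Acta2 moved in the same direction as Grb10, while the other 3 immune markers and the immune sums overlapped between the groups and Des was higher. Their part in the Grb10 difference was not tested.

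Mest, an enzyme of the alpha/beta hydrolase fold that is abundant in fetal mesoderm, had 28, 11 and 8 estimated reads in YAP and 61, 101 and 3437 in BrafYAP replicates 1, 2 and 6. All BrafYAP libraries were above all YAP libraries, and most of the mean rested on replicate 6. Mean scaled reads were 63.1 times higher in BrafYAP, or 4.33 times without replicate 6. The log2 difference was 4.01 (SE 1.43, 95% confidence interval 0.65 to 7.38, limma adjusted p = 0.187) and 2.23 without that library (adjusted p = 0.153, range over all settings 0.0123 to 0.411). Mest (chromosome 6, 30723547 to 30748465, plus strand) overlaps Copg2 on the minus strand, so reads can have been assigned between them. Copg2 had 2110, 965 and 1899 reads in YAP and 1060, 1337 and 2991 in BrafYAP, the most also in replicate 6. The library with the highest Mest was also the one with the highest Dlk1 and with 8 of 10 thyroid markers at their highest. Their part in the Mest level was not tested.

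**Figure D3:**
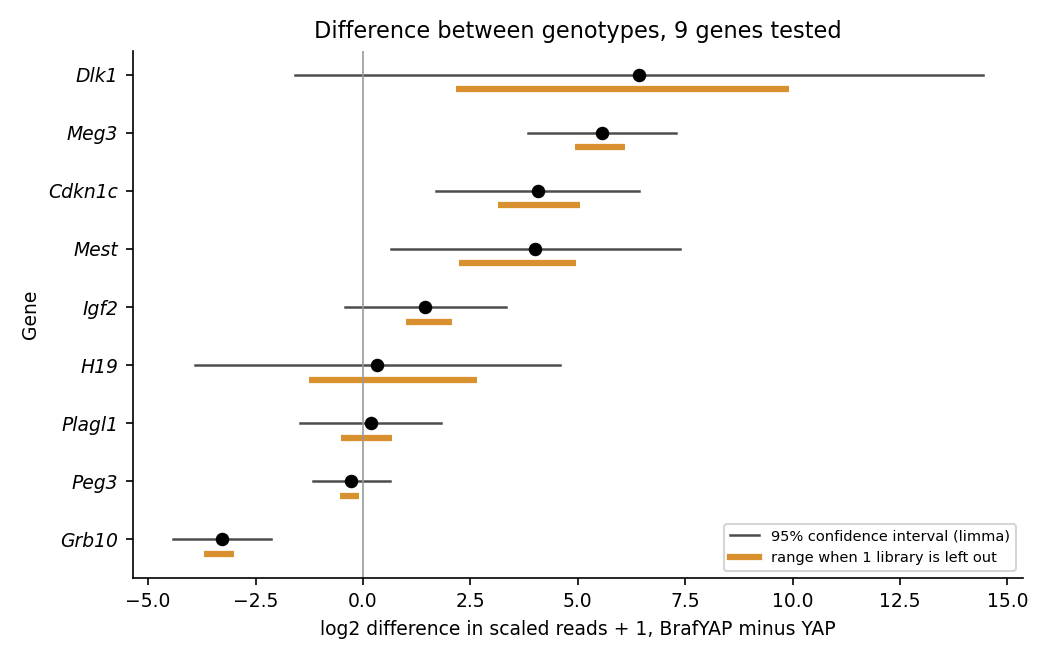
The log2 difference in scaled reads plus 1, BrafYAP minus YAP, for the 9 genes tested, with limma 95% confidence intervals as thin lines and the range of values when 1 library is left out as thick orange lines. The intervals of Meg3, Cdkn1c and Mest lie above 0 and that of Grb10 below, while the orange ranges of H19 (-1.26 to 2.66) and Plagl1 (-0.50 to 0.69) cross 0.

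The remaining paternally expressed genes did not separate the genotypes. Peg3 (chromosome 7, 6703892 to 6730431), a zinc finger protein known for its role in growth and maternal behavior, had 180, 130 and 132 estimated reads in YAP and 93, 147 and 215 in BrafYAP. Plagl1 (chromosome 10, 13060504 to 13131694), a zinc finger transcription factor that acts on other imprinted genes, had 57, 159 and 299 reads in YAP and 267, 123 and 203 in BrafYAP. Both groups overlapped in each gene. The differences were -0.27 for Peg3 (SE 0.38, 95% confidence interval -1.16 to 0.62) and 0.18 for Plagl1 (SE 0.70, interval -1.45 to 1.82), with limma adjusted p of 0.711 and 0.903. Peg10 (chromosome 6, 4747306 to 4760517), a retrotransposon-derived gene needed for the placenta, stayed under the minimum, with 9, 4 and 6 reads in YAP and 3, 15 and 9 in BrafYAP.

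To compare the genes with each other, estimated reads were divided by exonic length and rescaled to a common total in each library, here called exonic TPM. In YAP the order of mean exonic TPM was Grb10 at 4.89 ± 1.47, Plagl1 at 2.10 ± 1.46, H19 at 1.97 ± 0.589, Peg3 at 1.04 ± 0.139, Mest at 0.369 ± 0.236, Cdkn1c at 0.232 ± 0.319, Igf2 at 0.152 ± 0.138, Meg3 at 0.0939 ± 0.0565, Peg10 at 0.0881 ± 0.0293 and Dlk1 at 0.0491 ± 0.0324 (SD, n = 3). Neighbours in this order overlapped except H19 and Peg3, and Peg3 and Mest. In BrafYAP the order was Dlk1 at 617 ± 1067, Mest at 24.0 ± 38.6, H19 at 10.2 ± 12.1, Meg3 at 4.90 ± 3.39, Cdkn1c at 2.71 ± 0.414, Plagl1 at 2.18 ± 1.13, Peg3 at 0.917 ± 0.310, Grb10 at 0.544 ± 0.303, Igf2 at 0.392 ± 0.197 and Peg10 at 0.104 ± 0.0584. Here Igf2 and Peg10 were the one neighbouring pair without overlap.

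The leading gene differed between libraries. Grb10 made up 40.1 to 51.1% of the summed exonic TPM of the 10 genes in the 3 YAP libraries. H19 led in BrafYAP replicates 1 and 2, with 35.9% and 67.2%, and Dlk1 in replicate 6, with 95.6%. The sums were 7.43, 11.3 and 14.2 in YAP and 19.2, 35.2 and 1934 in BrafYAP. Every BrafYAP sum was above every YAP sum, also without Dlk1, where they were 7.38, 11.3 and 14.1 in YAP and 17.4, 35.2 and 85.2 in BrafYAP. Without Dlk1, 1 gene still made up most of the sum in BrafYAP replicates 2 and 6, H19 with 23.6 and Mest with 68.6. The sums therefore do not describe a rise of all 10 genes, since Grb10 was lower in BrafYAP and Peg3 and Plagl1 overlapped.

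The promoter windows of the genes shared no motif of those searched on both strands. RefSeq windows were found for 7 of the 10 genes, 14 windows in all, and H19, Cdkn1c and Peg10 are named only. The TEAD letters GGAATG, of the factors through which YAP binds DNA, were in 4 of the 14 windows, 3 of Igf2 and 1 of Peg3, beside 14.7% of all 32851 windows. The ETS letters CCGGAA were in 1 window, that of Meg3, beside 14.9%, the AP-1 letters TGANTCA in 0 beside 7.81%, and the Plagl1 letters GGGGCCCC in 1, of Peg3, beside 1.08%. The median ratio of observed to expected CG was 0.527 in the 14 windows and 0.384 in all windows. These are matches of letters only.

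Other imprinted genes were read from lists of known genes. Of 31 cluster neighbours, 18 were tested, 5 with an unadjusted limma p under 0.05 and higher in BrafYAP (Rian, Mirg, Kcnq1, Phlda2 and Slc22a18), 2 lower (Cobl and Kcnq1ot1), and a median difference of 0.03. Rian and Mirg are among the 5 only because BrafYAP carried them over the minimum. Of 38 other imprinted genes, a list that includes Tnfrsf23 of the Kcnq1 region, 26 were tested. By that measure 5 were higher and 2 lower, with a median of 0.25. The shares were 38.9% and 26.9% in either direction, beside 20.3% of all genes tested (9.69% higher, 10.6% lower), and are a description. Rasgrf1, an exchange factor that loads Ras with GTP, had 3, 3 and 4 estimated reads in YAP and 66, 92 and 484 in BrafYAP (log2 difference 4.85, SE 0.80, limma adjusted p = 0.0755). Every BrafYAP library was far above YAP for Rasgrf1, which reached the minimum only through that group, and without replicate 6 the difference was 4.00. H13, a signal peptide peptidase, had 573, 2127 and 1168 reads in YAP and 4348, 9383 and 12134 in BrafYAP (2.56, SE 0.57, and 2.28 without replicate 6). Gatm, the first enzyme of creatine synthesis, had 1387, 4064 and 790 reads in YAP and 299, 316 and 293 in BrafYAP (-2.69, SE 0.63, and -2.64 without replicate 6). Dcn (1.94, SE 0.67, and 2.07 without replicate 6), a matrix proteoglycan, was higher in every BrafYAP library on the scaled reads, and Ampd3 (-1.59, SE 0.36, and -1.38 without it), an AMP deaminase, lower. None of these genes passed the adjusted threshold. Dcn is also a fibroblast marker, and of the 8 fibroblast markers 2 were higher in every BrafYAP library and 2 lower in every one.

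**Figure D4:**
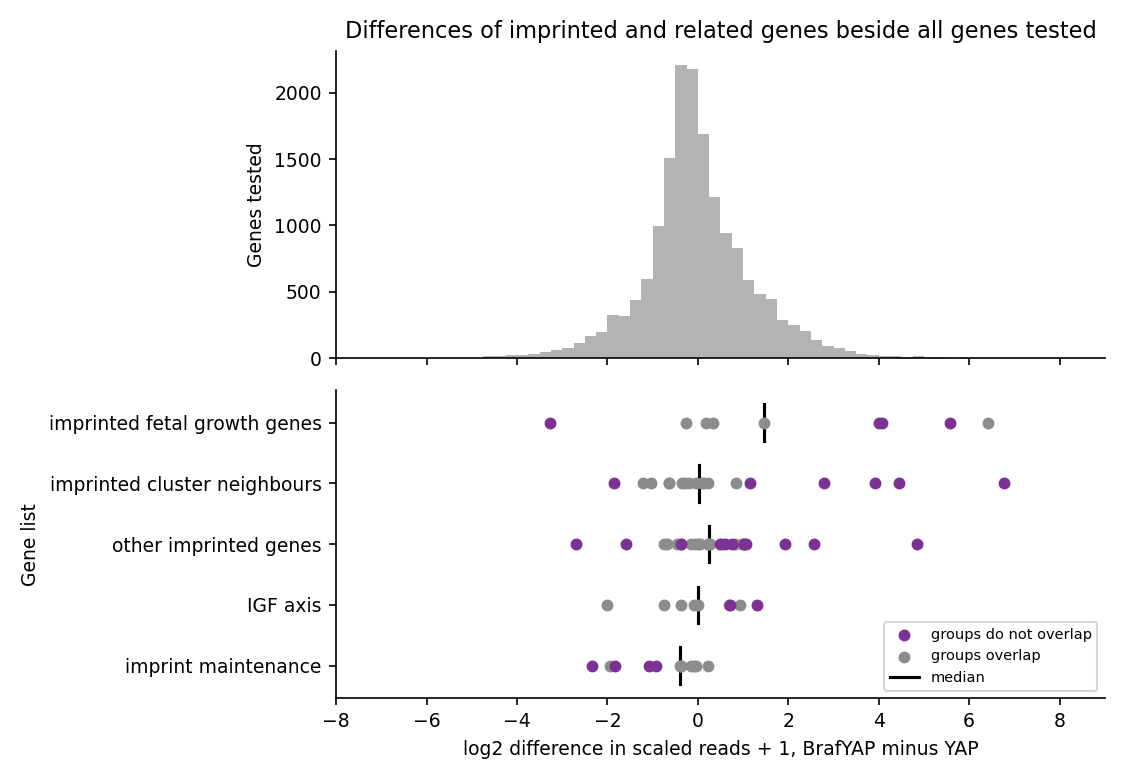
Upper panel, histogram of log2 differences (BrafYAP minus YAP, scaled reads plus 1) over the 16804 genes tested; lower panel, 1 point per tested gene of each list, purple where the groups did not overlap, with a black bar at the median. The fetal growth genes spread from -3.28 to 6.42, while medians of the neighbours and the IGF axis were 0.03 and 0.01.

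The IGF axis and genes that act on the methylation of imprints, listed as imprint maintenance, were described for the same libraries. Of 9 IGF axis genes, 2 had an unadjusted limma p under 0.05, both higher in BrafYAP: the insulin receptor Insr had 221, 551 and 879 estimated reads in YAP and 1255, 1481 and 1439 in BrafYAP (log2 difference 1.30, SE 0.52), and the adaptor Irs2 a difference of 0.71 (SE 0.27). That is 22.2% of the list, beside 20.3% of all genes tested, and without BrafYAP replicate 6 the differences were 1.29 and 0.55. Igf1 overlapped, with 1095, 714 and 255 reads in YAP and 68, 54 and 1365 in BrafYAP. Of 13 imprint maintenance genes 12 were tested, 4 with an unadjusted p under 0.05, all lower in BrafYAP: the maintenance methyltransferase Dnmt1 (-1.07, SE 0.27), Uhrf1 (-1.84, SE 0.36), which brings it to newly copied DNA, the de novo methyltransferase Dnmt3a (-0.92, SE 0.29) and the oxidase Tet1 (-2.33, SE 0.96). That is 33.3% of the 12, beside 20.3% of all genes tested and 10.6% lower. Without BrafYAP replicate 6 they were -1.14, -1.64, -1.11 and -2.62. Tet1 acts in the removal of methylation, unlike Dnmt1, Uhrf1 and Dnmt3a, so these genes do not all act in the same direction. Uhrf1 had 1467, 1581 and 2449 reads in YAP and 712, 628 and 462 in BrafYAP, and its groups did not overlap. Dnmt1 and Uhrf1 are also known as genes of dividing cells. DNA methylation was not measured.

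The genes most like H19 over the 6 libraries were Abtb2 (Pearson r = 0.996), Sema4f (0.996) and Ankrd50 (0.994), on log2(scaled reads + 1). Sema4f had 181, 211 and 312 estimated reads in YAP and 626, 1977 and 43 in BrafYAP replicates 1, 2 and 6, low in the same library as H19. Those most like Meg3 were Ccdc92 (0.998), Pcf11 (0.998) and Sox9 (0.998), a transcription factor of progenitor and cartilage cells with 304, 450 and 513 reads in YAP and 1641, 2565 and 3480 in BrafYAP. Those most like Igf2 were Nek5 (0.990), Tmem238 (0.989) and Ptpn4 (0.984). These r are a description over 6 libraries that share their preparation, each the highest over all tested genes of known name. Among the 10 genes, Meg3 was most like Cdkn1c (r = 0.936), and Dlk1 most like Mest (r = 0.909), over the same libraries.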

How the data were processed

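RNA-seq of 3 YAP and 3 BrafYAP libraries of about 20000 Kate-positive cells each was used. RNA was amplified for 12 cycles (SMART-Seq v4), with 8 PCR cycles for libraries and 50-nt paired reads. The labels and the paper's methods both start dox at 4 weeks, whereas its results text gives a later start. The paper describes 1 tumor per replicate and the labels pools for YAP, and the labels were followed. The labels give no batch. Nothing says that the tumors were independent beyond the labels, so p-values measure the spread between these libraries.

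The authors converted reads with bcl2fastq 2.2, aligned them to mm10 with STAR 2.6.1d, obtained gene values by expectation/maximization in Partek with Ensembl release 95 models, and deposited TPM with 0.0001 added. Low values were whole multiples of 1 step per library (tolerance 0.05) for 74.2 to 77.7% of genes when multiplied by genomic span, and for 26.5 to 29.2% with exonic length, so these TPM had been divided by the span (GENCODE M21). Multiplying it back gave estimated reads (26.1 to 36.9 M per library) and, on the authors' scale between libraries, scaled reads. E/M can split reads, so estimates are rounded. Reads carry no molecular identifiers, so read numbers cover counting error only. 0 columns lacked a sample.

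Since TPM are no counts, a linear model on a log scale was the main test. log2(scaled reads + 1) was fitted by limma 3.58.1 in R 4.3.3 (lmFit, eBayes with trend, two-sided, no covariate) for genes that averaged at least 10 scaled reads, with Benjamini-Hochberg adjustment over all of them and a threshold of 0.05. The fit was also run on simulated data with equal noise in both groups, capped at the median SD of the genes. That run does not cover a library as unlike the others as BrafYAP replicate 6. Alternatives were other pseudocounts, minima, normalizations, variance models, a replicate block, and leaving out each library.

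The 10 genes and all lists were chosen with earlier results of these data known. Named besides the 10 were, per list of neighbours and other imprinted genes, the 5 largest differences without overlap, in the IGF and imprint maintenance lists those with an unadjusted p under 0.05, and 3 genes most like H19, Meg3 and Igf2. Slc22a18, Tnfrsf23, Kcnq1ot1, Cd81, Tssc4, Nap1l4, Osbpl5, Igf1, Rtl1, individual markers and the genes in the other observations were named after their values were seen. Marker lists covered thyroid follicular, fibroblast, pericyte and smooth muscle, endothelial, skeletal muscle, muscle progenitor, adipocyte, immune, Schwann, C-cell, parathyroid and erythroid cells. Promoter windows were RefSeq's. A marker of the thyroid list is not reported here.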

Additional observations from a re-analysis of the deposited data

How the results depend on the processing

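No gene passed an adjusted p of 0.05 in limma (3404 with an unadjusted p under 0.05), and this count depended on the processing. It was 18 on the deposited values with the length division kept, where 1455 genes had an unadjusted p under 0.05, 62 on values per kilobase of exon, 45 with a pseudocount of 10, 62 after quantile normalization, 20 without a variance trend and 4662 with array weights (6915 by the unadjusted measure). The weights ran from 0.221 for BrafYAP replicate 6 to 4.82 for YAP replicate 3. It remained 0 with voom on the estimated reads (3416 unadjusted). Leaving out 1 library gave 0 to 45 called genes, with 45 without BrafYAP replicate 6 (8 higher, 37 lower) and 3 without YAP replicate 2, and 2289 to 3835 with an unadjusted p under 0.05. Median-ratio size factors moved the median of all genes from -0.12 to 0.01 and the split of unadjusted calls from 1629 higher and 1775 lower to 1950 and 1431.

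Of the 10 genes, Meg3 passed with a pseudocount of 10 (1 gene), Meg3 and Grb10 after quantile normalization (2), Meg3, Cdkn1c, Mest and Grb10 with array weights (4), and 0 to 1 when a library was left out, the 1 being Grb10 without BrafYAP replicate 6. On the deposited values 2 were tested and 0 had an unadjusted p under 0.05, beside 1455 of 7319 genes. For none of these shifts was the cause tested. H19 ranged from -1.26 to 2.66 when 1 library was left out, with -0.39 without BrafYAP replicate 1, and Plagl1 from -0.50 to 0.69, with -0.20 without BrafYAP replicate 1 and -0.45 with array weights. The other differences of the 9 genes kept their sign but not their size: values per kilobase of exon gave 2.27 for Meg3, 1.61 for Cdkn1c, 2.55 for Mest, 4.06 for Dlk1 and -1.91 for Grb10, and array weights 0.23 for Igf2, 2.45 for Cdkn1c and 2.90 for Dlk1. A pseudocount of 10 gave 2.31 for Cdkn1c and 0.84 for Igf2. Replicate numbers 1 and 2 were the ones both groups share. Samples with the same number did not deviate together (r = -0.03 and 0.05, beside -0.06 to 0.07 for the other pairs). These r cannot exclude a shared preparation, and the labels give no batch. With a replicate block 0 of 16804 genes were called, 2536 had an unadjusted p under 0.05, and 5 of the 9 tested fetal growth genes did. In that fit the difference rests on replicates 1 and 2, and it was 2.85 for H19, 2.52 for Dlk1, 1.81 for Mest and -0.65 for Peg3. Low read numbers limit Igf2, Peg10, Cdkn1c and Dlk1 in YAP, where differences were not detectable below a few reads.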

Other observations

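Of 24 imprinted genes under the minimum of 10 scaled reads, 12 had the higher mean in BrafYAP, 7 in YAP, and 5 had 0 reads in all libraries. The same split was not taken over all genes under the minimum, so these counts are no result about imprinted genes. Ascl2, a transcription factor of the placenta in the Kcnq1 domain, had 0 estimated reads in all 3 YAP libraries and 7, 1 and 22 in BrafYAP replicates 1, 2 and 6. Begain, at the edge of the chromosome 12 cluster, had 1, 1 and 0 reads in YAP and 2, 4 and 21 in BrafYAP. Dio3, the deiodinase that inactivates thyroid hormone, had 0 reads in 5 libraries and 7 in BrafYAP replicate 6, and Zdbf2 0 in the same 5 and 14 in replicate 6. BrafYAP replicate 6 was the highest library in these 4 genes. Others had more reads in YAP: the calcitonin receptor gene Calcr had 6, 0 and 13 reads in YAP and 0 in all 3 BrafYAP libraries, and Tfpi2, a protease inhibitor, 12, 16 and 0 in YAP and 5, 5 and 0 in BrafYAP. These values have no test.

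Marker sums in exonic TPM, in YAP and in BrafYAP, were 213 to 464 and 202 to 742 for thyroid follicular cells, 1276 to 1766 and 198 to 2086 for fibroblasts, 447 to 836 and 43.5 to 215 for pericytes and smooth muscle, and 4.26 to 33.5 and 2.14 to 40.2 for endothelium. They were 6.55 to 23.4 and 1.57 to 4.64 for skeletal muscle, 0.212 to 13.6 and 1.77 to 2.71 for muscle progenitors, with Pax7 and Myf5 at 0 in all libraries, 0.479 to 9.32 and 0.128 to 2.86 for adipocytes, with Lep at 0 in all, and 7.45 to 9.59 and 1.68 to 3.33 for Schwann cells. C-cell markers summed to 2.88 to 91.1 and 2.01 to 256.0, parathyroid markers to 2.48 to 106.6 and 0 to 637, and erythroid markers to 9.65 to 102.7 and 2.03 to 55.5. Dlk1, Igf2, Mest and H19 are also known from fetal mesoderm and endocrine cells, and the part of these cells in their levels was not tested.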
